A study of Homo sapiens with 4 samples.

Results

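circRNAs assembled from 10 or more exons were described in 2 pairs of non-small-cell lung cancer cell lines, each a drug-resistant line with its parent. The deposited circRNA table listed 3840 circular RNAs, of which 3790 were exonic circRNAs and 50 were intronic ciRNAs. The members are the 326 exonic circRNAs with an exon count of at least 10 (8.60% of the exonic circRNAs), chosen by that count alone and not by level. They came from 262 host genes, all protein-coding according to the table, and were compared with the 3464 exonic circRNAs of 1 to 9 exons.

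Each condition is represented by a single library of total RNA depleted of ribosomal RNA, which makes 4 libraries: A549 with A549/DDP, and HCC827 with HCC827/GR. A549 is a human lung adenocarcinoma line, and A549/DDP was derived from it by stepwise exposure to cisplatin, a platinum drug that crosslinks DNA. HCC827 is a lung adenocarcinoma line that depends on a mutated EGF receptor, and HCC827/GR was derived from it in the same way with gefitinib, an inhibitor of that receptor. The sample labels call both derived lines cisplatin-resistant, whereas the study's methods name gefitinib for HCC827/GR. Both resistant lines were kept without drug for a time before RNA was taken, and each is a single selected population. With 1 library per condition no difference between conditions could be tested, and the 95% intervals given with ratios cover counting error only.

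A circRNA forms when the spliceosome joins the end of a downstream exon back to the start of an upstream exon, so that the exons between them are closed into a ring without cap or poly(A) tail. Such rings resist exonucleases and can outlast the linear mRNA of the same gene. Most known circRNAs hold only a few exons, and those of many exons contain much of the coding sequence of their host gene.

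The members held a median of 12 exons and at most 54. Their spliced length ran from 612 to 8003 nucleotides with a median of 1731.5, against a median of 518 for circRNAs of fewer exons. Their genomic span had a median of 38634 base pairs and a maximum of 285372, against a median of 8256.5 for the others. Single exons were of similar length in both classes, with medians of 134 and 137.5 nucleotides, and so were the introns that flank the back-splice, with medians of 8104 and 8624.5 base pairs. The members were chosen by exon number, and they were longer in spliced length and span, with single exons and flanking introns of similar size.

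A total of 215 host genes gave 1 member, 35 gave 2, 8 gave 3, 3 gave 4 (PARD3, UBA2 and LRPPRC) and 1 gave 5 (CPS1). The members lay on 23 chromosomes, with 33 on chromosome 1, 27 on chromosome 2 and 23 on chromosome 3. In all, 217 members (66.6%) overlapped at least 1 other circRNA of the table on the same strand, against 45.5% of the circRNAs of fewer exons, and 93 overlapped another member. The deposited counts were often fractional: 5 of the 217 overlapping members had whole-number counts (within 1e-06) in all libraries, against 80 of the 109 that overlapped none. How the fractions arose was not tested. Members of 1 host gene are therefore not independent of each other.

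The 4 libraries held 1760400 (A549), 1960456 (A549/DDP), 2098414 (HCC827) and 1587755 (HCC827/GR) estimated circRNA counts, which was 7.06% to 8.80% of the total implied by the deposited FPKM. HCC827/GR was unlike the rest in its zeros: 574 of the 3840 circRNAs were at 0 there, against 7 to 62 elsewhere. All members had counts in both A549 lines, 3 were at 0 in HCC827 and 6 in HCC827/GR. Of the circRNAs of fewer exons, 536 (15.5%) were at 0 in HCC827/GR. The ratios of the HCC827 pair all rest on this library, and its part in them was not tested.

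The members took 21.9% of all circRNA counts in A549 (exact binomial 95% interval 21.8% to 21.9%) and 23.6% in A549/DDP, 23.6% in HCC827 against 23.1% in HCC827/GR. Their median estimated count was 666 in A549 and 191 for circRNAs of fewer exons, and in HCC827 the medians were 965 and 259.9. Per length this difference was gone. The median FPKM of the members was 16.0 in A549 and 17.2 in A549/DDP, with 18.6 in HCC827 and 14.8 in HCC827/GR, and that of the circRNAs of fewer exons was 15.6, 17.3, 16.5 and 13.4. Across the 3790 exonic circRNAs, the Spearman rank correlation of spliced length with count was 0.53 in A549 and 0.50 in HCC827. With FPKM it was -0.06 in both. Within the members alone the correlation with count was 0.22 in A549 and 0.31 in HCC827, and with FPKM -0.19 and -0.13. The counts thus grew with the length of the ring, as counts of reads along all exons do. They are not given as counts of back-splice junction reads, and reads of the linear mRNA over the same exons cannot be told apart from reads of the ring.

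**Figure D1:**
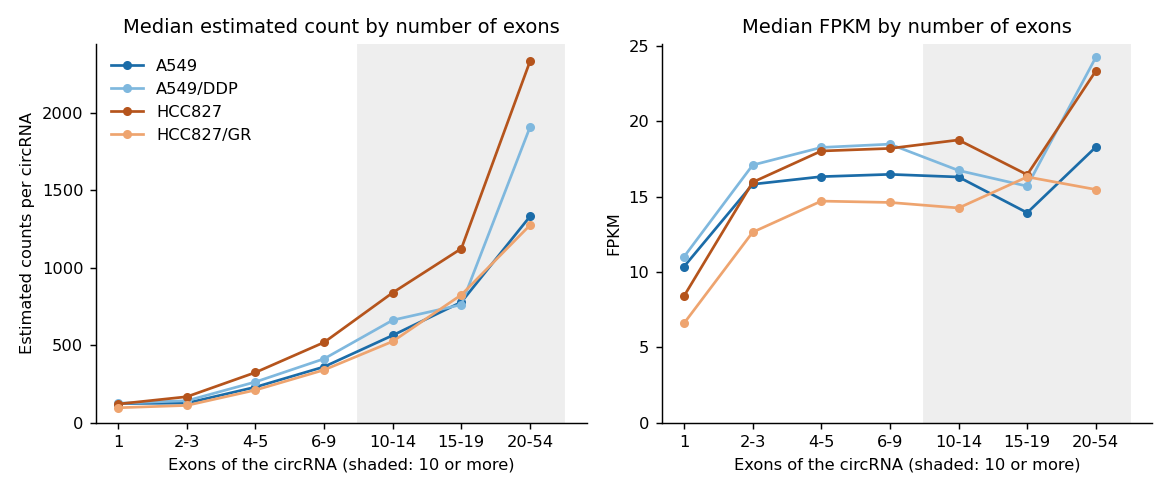
Median estimated count (left) and median FPKM (right) of exonic circRNAs by number of exons, with 1 line per library and the classes of 10 or more exons shaded. In A549 the median count rises from 124 at 1 exon to 1331 at 20 to 54 exons, whereas the median FPKM is 10.4 at 1 exon, 15.8 to 16.5 at 2 to 9 exons and 13.9 to 18.3 in the shaded classes.

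The limit of 10 exons did not mark a step. The 105 circRNAs of exactly 9 exons had a median FPKM of 18.6 in A549 and the 60 of exactly 10 exons had 21.7. In the A549 pair 6.67% of each differed by 2-fold or more, and in the HCC827 pair 33.7% and 27.6% did.

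The number at 0 in HCC827/GR fell with the number of exons, from 29.7% at 1 exon, 21.6% at 2 to 3, 9.51% at 4 to 5 and 5.50% at 6 to 9 to 2.62% at 10 to 14 exons. All 58 members of 15 to 19 exons and all 39 of 20 to 54 exons had counts in every library. Circles of more exons also had more counts, so zeros were set beside each other at like totals over the 4 libraries. At a total of 300 to under 1000 counts, 2 of 20 members and 147 of 1224 circRNAs of fewer exons (12.01%) were at 0 in HCC827/GR. At 1000 to under 3000 counts these shares were 2.21% and 1.65%. At like counts the shares at 0 were therefore close in both classes.

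To compare the lines, each count was scaled to counts per 1000000 circRNA counts of its library (CPM), and a circRNA was called higher or lower where the ratio was at least 2 or at most 0.5 with 3 counts added in each library, among circRNAs with at least 10 counts over the pair. In A549/DDP against A549, 21 of 326 members were called, 8 higher and 13 lower. This is 6.44% of the members, against 10.5% of all circRNAs of the table tested (3.08% higher and 7.44% lower) and 10.8% of those of fewer exons. In HCC827/GR against HCC827, 89 of 323 members were called, 21 higher and 68 lower. This is 27.6% of the members, against 44.8% of all circRNAs (13.1% higher and 31.8% lower) and 46.2% of those of fewer exons. On FPKM in place of CPM the calls of the A549 pair were 13 higher and 11 lower: HIF1A (0.517) and HEATR5A (0.533) left the lower calls, and CLASP1 (2.09), DNMT1 (2.06), KIAA0319 (2.13), KIAA1524 (2.11) and UTP20 (2.16) joined the higher ones.

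The median ratio of the members was 1.003 in the A549 pair, against 1.02 over all circRNAs. For the HCC827 lines it was 0.851, against 0.815 over all circRNAs. The members thus lay near the bulk of the table in both pairs. Since the members had higher counts, the share called was also read at like counts. At 1000 to under 3000 counts over the pair, 5.30% of members and 8.97% of the others were called in the A549 pair, and 14.4% and 25.6% in the HCC827 pair. At 300 to under 1000 counts the shares were 4.81% and 7.85% in the A549 pair, but 47.6% and 38.4% in the HCC827 pair. At 3000 counts or more they were 10.7% and 16.3% in the former, and 26.7% and 26.0% in the latter. At 100 to under 300 counts, where there were few members, 0 of 5 members and 10.4% of the others were called in the A549 pair, and 5 of 8 members and 57.7% of the others in the HCC827 pair. The 1 member below 100 counts in each pair was not called in the A549 pair and called in the HCC827 pair, against 22.8% and 88.6% of the others. At like counts the members were thus called less often in the A549 pair in each class of counts. In the HCC827 pair they were called less often at 1000 to under 3000 counts alone.

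**Figure D2:**
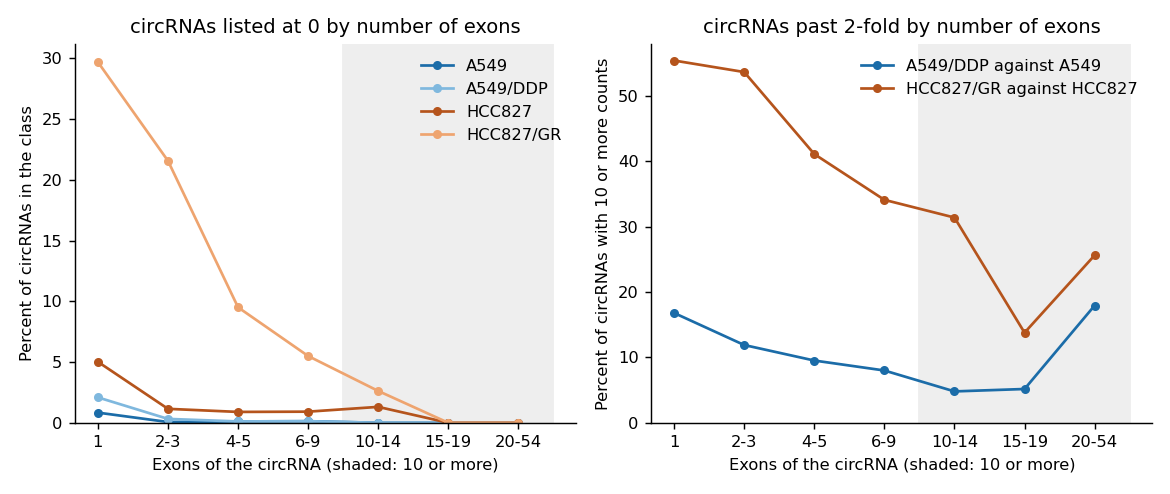
Percent of exonic circRNAs at 0 in each library (left) and percent called at 2-fold or more in each pair (right) by number of exons, with the classes of 10 or more exons shaded. In HCC827/GR 29.7% of single-exon circRNAs are at 0 and none of those with 15 or more exons, and the share called falls from 55.5% at 1 exon to 13.8% at 15 to 19 exons in the HCC827 pair before it is 25.6% at 20 to 54.

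Among the 39 members of 20 to 54 exons, 17.9% were called in the A549 pair, against 10.5% of all circRNAs. Of those called, 5 were higher, all overlapping circRNAs of CPS1, and 2 were lower. None of the 39 was called higher in the HCC827 pair and 10 (25.6%) were called lower, again with the 5 of CPS1 among them, against 13.1% higher and 31.8% lower over all circRNAs.

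The rings with the most exons came from genes of very large proteins. UBR4, a ubiquitin ligase of the N-degron pathway, gave a circRNA of 54 exons and 8003 nucleotides. It was at 2505 CPM in A549 and 2618 in A549/DDP, with 3641 in HCC827 and 3809 in HCC827/GR, with a ratio of 1.05 in each pair. The ring of 43 exons from HECTD4, a HECT-domain protein, was at 1293, 828, 1604 and 1156 CPM in the same order, 0.641 and 0.721 times the parental level. HTT, the gene of huntingtin, gave a ring of 39 exons at 621, 712, 990 and 1642 CPM, with ratios of 1.15 and 1.66. GCN1L1, whose product senses stalled ribosomes and activates the kinase GCN2, gave one of 38 exons at 2084, 2116, 1943 and 1756 CPM, with ratios of 1.02 and 0.904. None of these was called in either pair.

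CPS1 encodes carbamoyl phosphate synthetase, the mitochondrial enzyme of the first step of the urea cycle. Its 5 members, of 20, 21, 25, 34 and 36 exons, lie at chr2:210556719-210677136 on the plus strand (coordinates as deposited, build not given in the sources used here), and 4 of them start at the same base. The ring of 36 exons (circRNA3219, 4278 nucleotides) was at 510 CPM in A549 and 6101 in A549/DDP, with 5545 in HCC827 and 935 in HCC827/GR. A549/DDP and HCC827 were thus the high libraries, in opposite places of their pairs. The ratios were 11.97 (95% interval 11.2 to 12.8) in the A549 pair, against 0.169 (0.160 to 0.178) in the HCC827 pair. Over the 5 members they ran from 11.9 to 12.4 and from 0.169 to 0.235. The summed CPM of the 2 CPS1 circRNAs of fewer exons, which overlap the members, was 105.5 in A549 and 1178 in A549/DDP, with 1092 in HCC827 and 305 in HCC827/GR. Without the CPS1 members, the share of all circRNA counts on members was 22.3% in HCC827 and 22.8% in HCC827/GR, against 23.6% and 23.1% with them, which turned the direction of that small difference.

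No member other than those of CPS1 was as far from its parental level in A549/DDP. PDE3A, a cAMP phosphodiesterase, gave a ring of 11 exons at 77.9 CPM in A549 and 471 in A549/DDP, with 484 in HCC827 and 153 in HCC827/GR. Its ratios were 6.04 (5.05 to 7.29) and 0.316 (0.274 to 0.364). DNA2, a nuclease and helicase of DNA replication and repair, gave one of 13 exons at 207, 417, 388 and 121.5 CPM. Its ratios were 2.02 (1.78 to 2.29) and 0.313 (0.266 to 0.367), and the first dropped below 2 when the pair was scaled to its median ratio. The members of CPS1, PDE3A and DNA2 were the 7 called higher in A549/DDP and lower in HCC827/GR, 2.17% of the 323 members tested in both pairs against 1.34% of all circRNAs. No member was called the other way round, against 1.53% of all circRNAs.

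KIF20B, a kinesin of cytokinesis, was the remaining host higher in A549/DDP. Its ring of 16 exons was at 384, 847, 901 and 1171 CPM, with ratios of 2.21 (2.02 to 2.41) and 1.30. It was lowest in A549, and the other 3 libraries lay closer together. No member was called higher in both pairs, and over all circRNAs 0.402% were.

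**Figure D3:**
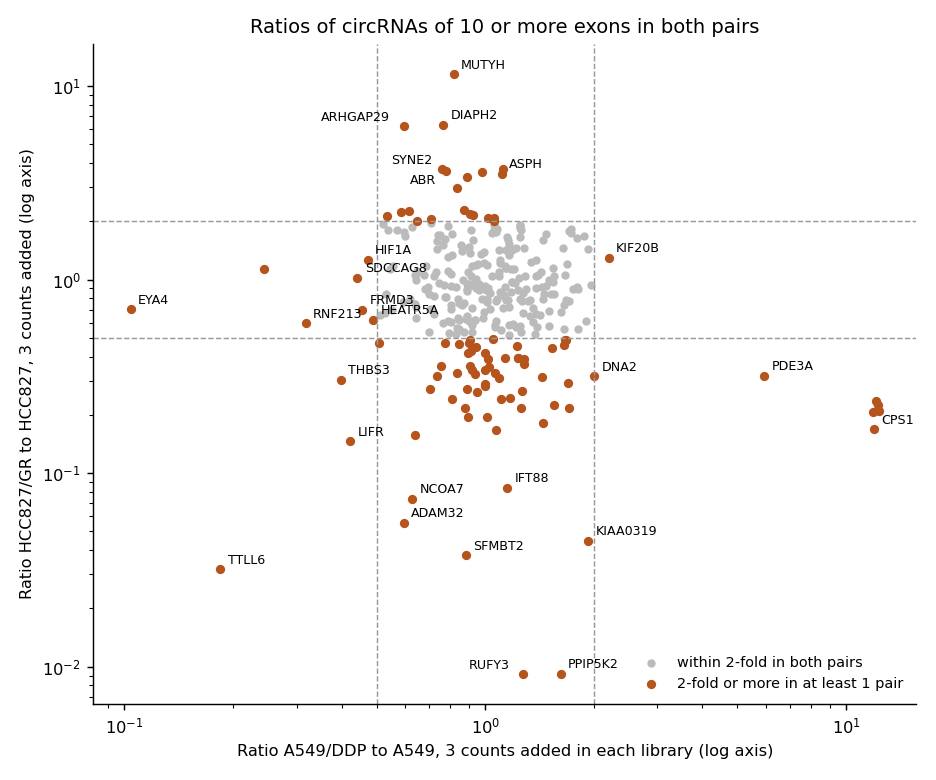
Ratio of HCC827/GR to HCC827 against the ratio of A549/DDP to A549 for the members with 10 or more counts in both pairs, with 3 counts added in each library, both axes on a log scale and dashed lines at 0.5 and 2. The 5 members of CPS1 lie at lower right with ratios near 12 and 0.2, and most of the coloured points lie below 0.5 in the HCC827 pair alone.

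Of the 13 members lower in A549/DDP, the farthest was that of EYA4, a transcriptional coactivator with phosphatase activity. Its ring of 13 exons was at 427 CPM in A549 and 43.1 in A549/DDP, with 195 in HCC827 and 136 in HCC827/GR, a ratio of 0.101 (0.0791 to 0.126) in the A549 pair. NTRK3, the receptor of neurotrophin-3, gave a ring of 11 exons at 1608 CPM in A549 and 263 in A549/DDP, a ratio of 0.164 (0.149 to 0.180). It was at 0 in both HCC827 libraries, where 3 counts, the limit that a count of 0 allows, are worth 1.43 and 1.89 CPM. THSD7A, a membrane protein with thrombospondin domains, gave 2 overlapping rings of 10 exons that were at 537 and 615 CPM in A549, at 110 and 125 in A549/DDP and at 0 in both HCC827 libraries. Their ratios in the A549 pair were 0.206 and 0.203. Thus NTRK3 and THSD7A rings were seen in A549 cells only among these libraries, and at a lower level in A549/DDP.

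RNF213, a giant ubiquitin ligase with an AAA+ motor, gave 2 members from separate stretches of the gene on the plus strand of chromosome 17, at 80263574 to 80309171 (14 exons) and 80361734 to 80385621 (23 exons). The ring of 23 exons was at 3195 CPM in A549 and 778 in A549/DDP, with 1056 in HCC827 and 1205 in HCC827/GR, with ratios of 0.244 (0.230 to 0.258) and 1.14. The ring of 14 exons was at 1889, 601, 556 and 331 CPM, with ratios of 0.318 and 0.595. A549 was the high library for both. The 5 RNF213 circRNAs of fewer exons summed to 4787 CPM in A549 and 1324 in A549/DDP, a ratio of 0.277.

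HIF1A, the oxygen-regulated transcription factor subunit, gave a ring of 10 exons at 5957 CPM in A549 and 2814 in A549/DDP, a ratio of 0.472 (0.457 to 0.488), and its circRNAs of fewer exons had a ratio of 0.432. The remaining calls of the A549 pair alone were SDCCAG8, a centrosomal protein, at 0.440, FRMD3, a FERM-domain protein, at 0.454, and HEATR5A at 0.487.

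A total of 3 members (0.929%) were called lower in both resistant lines, against 2.92% of all circRNAs. LIFR, the receptor of leukaemia inhibitory factor, gave a ring of 15 exons at 216 CPM in A549 and 90.5 in A549/DDP, with 2544 in HCC827 and 371 in HCC827/GR, with ratios of 0.419 (0.350 to 0.504) and 0.146 (0.134 to 0.159). THBS3, a thrombospondin of the extracellular matrix, gave one of 20 exons at 238, 93.9, 210 and 62.4 CPM, with ratios of 0.394 and 0.297. TTLL6, a tubulin polyglutamylase, gave one of 13 exons at 254, 45.7, 57.9 and 0 CPM. It was 0.180 times the parental level in the A549 pair and at least 30.6-fold lower in HCC827/GR against the limit of 3 counts. For LIFR the parental lines themselves were far apart, with HCC827 the high library.

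In HCC827/GR, several members nearly vanished that had moderate levels in the other 3 libraries. RUFY3, an adaptor of endosomes and lysosomes, gave a ring of 13 exons at 152, 194, 205 and 0 CPM, at least 108.5-fold lower in HCC827/GR. PPIP5K2, an inositol pyrophosphate kinase, gave one of 12 exons at 220, 359, 272 and 0.630 CPM, the last being 1 count, with a ratio of 0.00231 (5.85e-05 to 0.0129). KIAA0319 gave one of 13 exons at 98.8, 192, 62.0 and 0.945 CPM, with a ratio of 0.0152 (0.00244 to 0.0749). These hosts had no circRNA of fewer exons in the table, so the rings could not be set beside another of the same gene.

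SFMBT2, a Polycomb group protein, gave a ring of 12 exons at 184, 162, 445 and 14.96 CPM, with a ratio of 0.0336 (0.0216 to 0.0508). Its 6 circRNAs of fewer exons summed to 1379 CPM in HCC827 and 127 in HCC827/GR, a ratio of 0.0924. NCOA7, a nuclear receptor coactivator, gave one of 10 exons at 934, 586, 1029 and 74.3 CPM, with a ratio of 0.0722 (0.0595 to 0.0869). Its single circRNA of fewer exons does not overlap it and had a ratio of 0.716, so the 2 rings of NCOA7 differed. IFT88, a subunit of intraflagellar transport in cilia, gave one of 13 exons at 163, 188, 163.5 and 11.97 CPM, with a ratio of 0.0732 (0.0435 to 0.116). ADAM32, of the ADAM family of membrane proteins, gave one of 13 exons at 85.4, 50.2, 32.6 and 0 CPM, at least 17.3-fold lower.

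The largest ratio in the other direction was that of MUTYH, the DNA glycosylase that removes adenine mispaired with oxidised guanine. Its ring of 13 exons was at 43.2 CPM in A549 and 35.2 in A549/DDP, with 32.9 in HCC827 and 394 in HCC827/GR, a ratio of 11.99 (9.34 to 15.6). It was low in 3 libraries and high in HCC827/GR alone. ARHGAP29, a GTPase-activating protein, gave one of 11 exons at 222, 131, 369 and 2289 CPM, with a ratio of 6.21 (5.74 to 6.72). DIAPH2, a formin that builds actin filaments, gave one of 14 exons at 453, 346, 60.3 and 387 CPM, with a ratio of 6.42 (5.32 to 7.88). For DIAPH2 it was HCC827 that stood apart as the low library.

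The same arrangement was seen in TGFBI, an extracellular matrix protein induced by TGF-beta, whose ring of 11 exons was at 5357, 4769, 893 and 3017 CPM, a ratio of 3.38 (3.20 to 3.57) in the HCC827 pair. SYNE2, the nuclear envelope protein nesprin-2, gave a ring of 12 exons at 197, 149, 128 and 480 CPM, with a ratio of 3.74. ABR, a regulator of small GTPases, gave one of 14 exons at 640, 498, 295 and 1076 CPM, with a ratio of 3.65. HCC827/GR was the high library for both.

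**Figure D4:**
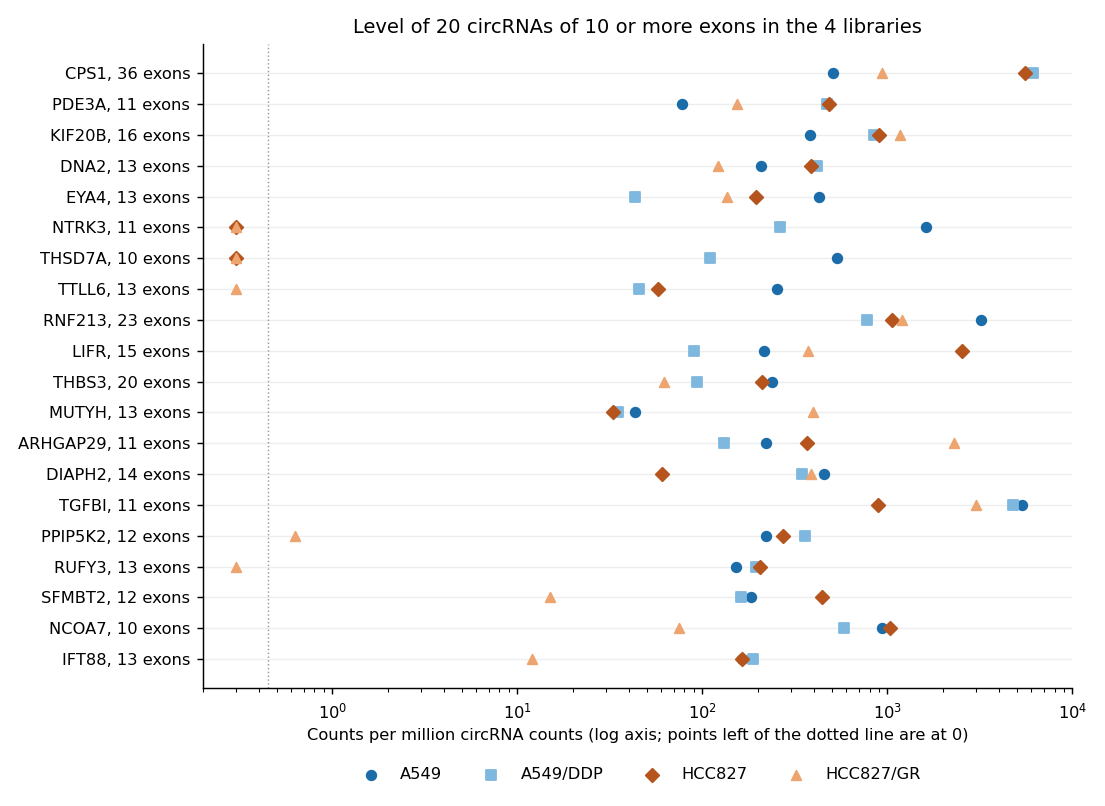
CPM (log axis) of 20 named members in the 4 libraries, with 1 row per member, 1 symbol per library and values of 0 drawn left of the dotted line. The CPS1 ring of 36 exons is at 6101 in A549/DDP and 5545 in HCC827 but at 510 and 935 in the other 2, and the RUFY3 and TTLL6 rings are at 0 in HCC827/GR.

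ASPH, TXNRD1, TGFBI and PRRC2C gave members with some of the highest CPM summed over the 4 libraries. ASPH, an aspartyl hydroxylase of the endoplasmic reticulum, gave 3 overlapping members of 10 and 11 exons. The ring with the highest level of all members (circRNA2266) was at 710 FPKM in A549 and 763 in A549/DDP, with 274 in HCC827 and 949 in HCC827/GR. Its CPM ratio was 0.982 in the A549 pair, against 3.62 (3.502 to 3.73) in the HCC827 pair, and the 3 ASPH members ran from 3.53 to 3.74 in the latter. The 4 ASPH circRNAs of fewer exons had a summed ratio of 3.48.

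TXNRD1, thioredoxin reductase 1, a target of the oxidative stress factor NRF2, gave a ring of 12 exons at 197, 369, 117 and 198 FPKM. Its CPM ratios were 1.71 (1.66 to 1.76) and 1.78 (1.71 to 1.84), higher in both resistant lines and below the 2-fold limit in both. The 4 TXNRD1 circRNAs of fewer exons had ratios of 1.80 and 1.89. PRRC2C gave a ring of 10 exons at 57.5, 87.1, 76.7 and 76.5 FPKM and was not called in either pair.

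Host genes with several members showed how close the ratios of rings of 1 gene were. Across all 326 members, 93 overlapped another member, and the ratios of such rings are not independent readings. In the A549 pair, the 4 members of PARD3, a scaffold of cell polarity, had ratios of 0.520 to 0.584, and the 4 of UBA2, a subunit of the SUMO-activating enzyme, had 1.33 to 1.36. The 4 of LRPPRC, which stabilises mitochondrial mRNAs, had 1.65 to 1.71, and the 3 of ABCC4, a drug and nucleotide exporter, had 0.912 to 1.06. The same hosts had, in the HCC827 pair, 1.82 to 2.24 (PARD3), 0.597 to 0.779 (UBA2), 0.482 to 0.781 (LRPPRC) and 1.04 to 2.02 (ABCC4). The ranges were thus wider in the HCC827 pair for each of these hosts.

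This held for most of the 46 host genes with more than 1 member tested in both pairs. The highest over the lowest ratio among the members of a host had a median of 1.05 in the A549 pair, against 1.30 in the HCC827 pair. It was over 1.5 in 2 hosts in the A549 pair and in 16 in the HCC827 pair, and it was larger in the HCC827 pair for 38 of the 46. In 12 hosts the HCC827 pair had members with different calls, and in 0 hosts the A549 pair did. Both pairs were read over the same members.

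ATR, the kinase of the replication stress checkpoint, gave 3 members. The ring of 14 exons was at 226 CPM in A549 and 290.5 in A549/DDP, with 347 in HCC827 and 126 in HCC827/GR, the ring of 16 exons at 197, 265, 266 and 328, and the ring of 33 exons at 642, 846, 965 and 750. Their ratios were 1.28, 1.34 and 1.32 in the A549 pair but 0.363, 1.23 and 0.777 in the HCC827 pair. One ATR ring was thus lower in HCC827/GR and another slightly higher. NF1, a GTPase-activating protein of RAS, gave rings of 20 and 27 exons with ratios of 0.701 and 0.699 in the A549 pair, and of 0.270 and 0.537 in the HCC827 pair. BIRC6, an inhibitor of apoptosis with ubiquitin ligase activity, gave rings of 10 and 22 exons with ratios of 0.934 and 1.07, and of 0.319 and 0.771.

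**Figure D5:**
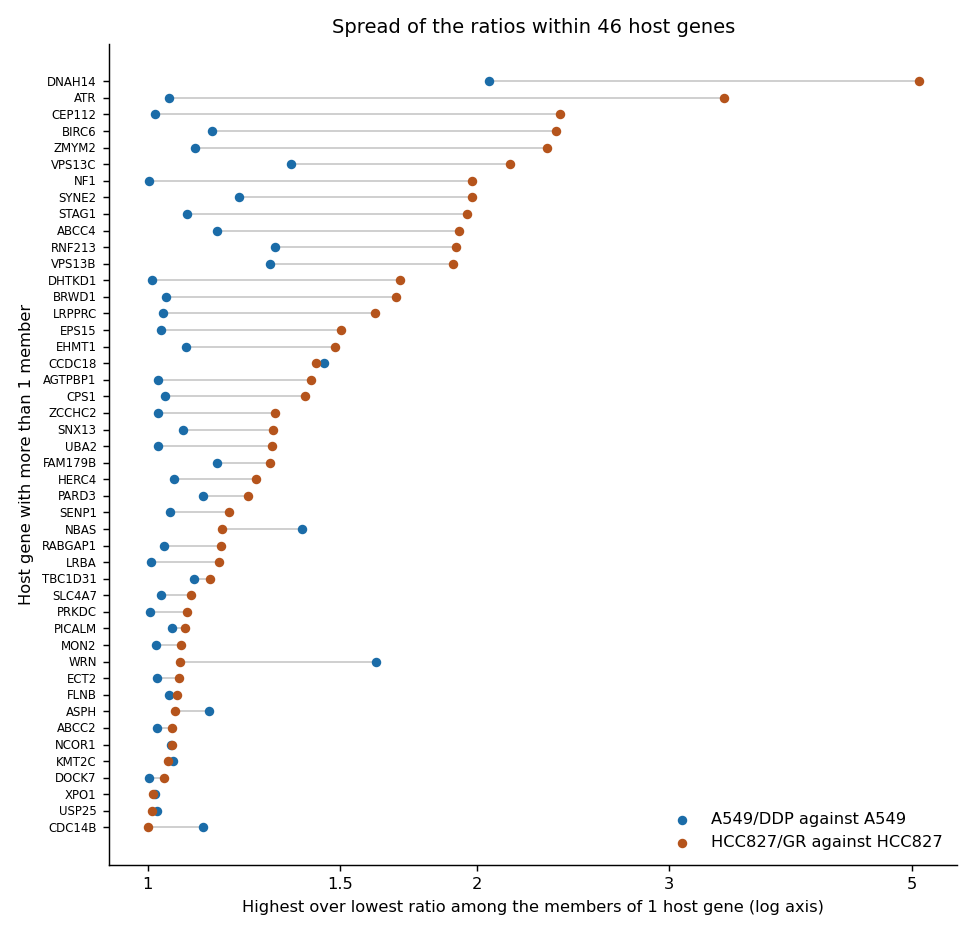
Highest over lowest ratio among the members of each of the 46 host genes with more than 1 member tested, for the A549 pair and for the HCC827 pair, on a log axis. The median is 1.05 in the A549 pair, against 1.30 in the HCC827 pair, and the largest values are 2.05 and 5.08, both in DNAH14.

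Nested rings gave a second view of HCC827/GR. Among 48 pairs of members of 1 host in which the span of 1 ring lies within that of a longer one, 4 pairs had equal counts above 0 (within 1e-06) in HCC827/GR, and 0 pairs did in each of the other 3 libraries. In DHTKD1, a mitochondrial 2-oxoadipate dehydrogenase subunit, the rings of 12 exons (2165 nucleotides) and 15 exons (2504 nucleotides) both had 82.4 estimated counts in HCC827/GR, whereas in HCC827 they were at 119 and 203.5 CPM. In TBC1D31, a protein of the centrosome, the rings of 16 and 18 exons both had 282 counts, and in ZCCHC2 the rings of 12 and 13 exons both had 59.5. The longer ring thus had no more counts than the shorter one in that library. The rest of the table showed the same contrast: of 986 nested pairs of fewer exons, 97 had equal counts in HCC827/GR, compared with 8 in its parent, 1 in A549 and 2 in A549/DDP.

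Circles of the same host that share no exon with the member were compared to see how far the call extended along the gene. In the A549 pair 88 members had such circRNAs of fewer exons. All 4 of those members that were lower, from RNF213 and THSD7A, had them lower past 2-fold as well, and the 1 that was higher, from KIF20B, had them on the same side but not past 2-fold. Over all 88 members, such circRNAs were called lower for 7.95% and higher for 2.27%. For HCC827/GR, 86 members had such circRNAs. The 6 members called higher came from 3 hosts, and members of 1 host were set against the same circRNAs. The 5 of ASPH and USP25 had them called higher. The 1 of DIAPH2 had them called lower, from 14 counts in HCC827 and 0 in HCC827/GR. Of the 21 called lower, 9 had them called lower, another 9 had them below 1 but not past 2-fold, 0 had them called higher, and for the remaining 3 they were not below 1. Over all 86 members, such circRNAs were called lower for 20.9% and higher for 16.3%. Of the 59 members not called in this pair, 8 had them called lower and 9 called higher.

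The members were next read by the function of the host gene, on lists written for this work that are not complete. Called members outside the lists were not counted, such as TTLL6, which was not among the cytoskeleton and motor genes. The 12 lists held 182 members from 137 hosts, and their counts are to be read against 10.5% called for A549/DDP and 44.8% for HCC827/GR, with medians of 1.02 and 0.815, over all circRNAs.

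Ubiquitin ligases attach ubiquitin to proteins and deubiquitinases remove it. This list held 24 members from 15 hosts, with 0 higher and 2 lower in the A549 pair, both RNF213, and a median of 0.920. Of these, 2 were higher and 1 lower in HCC827/GR, with a median of 0.968. The 2 higher were the rings of 13 and 14 exons of USP25, a deubiquitinase, at 648 and 675 CPM in HCC827 and 1403 and 1476 in HCC827/GR, with ratios of 2.17 and 2.19. The 1 lower was the ring of 10 exons of BIRC6.

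DNA repair and replication genes gave 13 members from 9 hosts, with 1 higher and 0 lower in the A549 pair and a median of 1.28. MUTYH, called higher in HCC827/GR, was not on this list. Among the listed members 0 were higher and 4 lower in HCC827/GR, with a median of 0.683. Those were DNA2, the ring of 14 exons of ATR, MSH3, a mismatch recognition protein, at 336 and 109 CPM (0.326), and RAD54B, a motor of homologous recombination, at 452 and 174 CPM (0.384). Cell cycle and mitosis genes gave 10 members from 7 hosts, with none called in the A549 pair, a median of 1.16, and 3 lower in the HCC827 pair with a median of 1.09. The 3 were KNTC1, a kinetochore protein of the spindle checkpoint, at 559 and 135 CPM (0.242), the ring of 14 exons of STAG1, a cohesin subunit, at 176 and 45.3 CPM (0.257), and NEK9, a mitotic kinase, at 417 and 131 CPM (0.315).

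Nuclear pore and transport genes carry cargo between nucleus and cytoplasm. They gave 13 members from 11 hosts, with none called in the A549 pair and a median of 1.40, the highest of the 12 lists. HCC827/GR had 3 lower, with a median of 0.737. NUP155, a scaffold nucleoporin, gave a ring of 27 exons at 865, 1428, 2855 and 1303 CPM in the order given above, with ratios of 1.65 and 0.456. RANBP17, a transport receptor of the exportin family, was at 370 CPM in HCC827 and 70.5 in HCC827/GR (0.191), and XPO4, exportin 4, at 473 and 230.5 (0.487).

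Cytoskeleton and motor genes gave 25 members from 20 hosts, with 1 higher in the A549 pair, KIF20B, and a median of 0.992. In the HCC827 pair 4 were higher and 3 lower, with a median of 1.30. The 4 were DIAPH2, SYNE2 and the rings of 10 and 18 exons of PARD3, the latter at 669 and 1498 CPM. The 3 were KIF14, a kinesin of cytokinesis, at 0.391, CLASP2, a microtubule plus-end protein, at 0.448, and MYO1E, a class I myosin, at 0.467. Hosts left off this list included DNAH14, a dynein heavy chain, with 2 of its 3 rings called lower in that pair. Small GTPase regulators gave 15 members from 10 hosts, with none called in the A549 pair and a median of 0.941. Against HCC827, ARHGAP29 was higher and the ring of 20 exons of NF1 lower, with a median of 1.10. ABR, called higher in the HCC827 pair, was not on this list.

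Membrane traffic genes gave 24 members from 16 hosts, with none called in the A549 pair and a median of 0.928. In the HCC827 pair 1 was higher and 6 lower, with a median of 0.842. RUFY3, VPS36 and PLEKHA8, also called lower in that pair, were not on this list. EPS15, an endocytic adaptor, was higher, with a ring of 11 exons at 231 and 483 CPM (2.09). CLEC16A, a regulator of autophagy and mitophagy, was at 260.1 and 45.7 CPM (0.176), VPS13A, a lipid transfer protein, at 353 and 115 CPM (0.326), and the rest were 2 rings each of SNX13 and MON2, at 0.352 to 0.463.

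Transporters and metabolic enzymes gave 20 members from 12 hosts. The 5 called in the A549 pair were those of CPS1, and the median was 0.982. In the HCC827 pair 2 were higher and 7 lower, with a median of 0.706, and 5 of the 7 were again CPS1. The others lower were RRM1, the large subunit of ribonucleotide reductase, at 1993 and 884 CPM (0.443), and ACSL3, a fatty acid activating enzyme, at 1596 and 775 CPM (0.485). GFPT1, the entry enzyme of the hexosamine pathway, was higher at 372 and 853 CPM (2.29). The ring of 11 exons of ABCC4 was also higher, at 94.7 and 191 CPM (2.02). DHTKD1, with 2 rings called lower in the HCC827 pair, and NDUFS1, a subunit of respiratory complex I, with 1, were not on this list.

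Kinases, receptors and signalling enzymes gave 11 members from 11 hosts, with PDE3A higher and LIFR lower in the A549 pair and a median of 0.735. The receptor NTRK3, called lower in the A549 pair, was not on this list. In the HCC827 pair 3 were higher and 3 lower, with a median of 0.851. The 3 higher were NOTCH1, a receptor of cell fate decisions, at 131.5 and 298 CPM (2.27), PRKCA, protein kinase C alpha, at 600.0 and 1236 CPM (2.06), and PTPRF, a receptor tyrosine phosphatase, at 1131 and 2264 CPM (2.001). On FPKM, PRKCA (1.97), PTPRF (1.91), the EPS15 ring (1.998) and the ABCC4 ring (1.93) were below 2. The 3 lower were LIFR, PDE3A and SMG1, the kinase of nonsense-mediated decay, at 220 and 46.2 CPM (0.210). SMG1 was also 1 of the 2 lower among the 15 members of translation and RNA processing genes, the other being EIF4G3, a translation initiation scaffold, at 0.470. That list had none called in the A549 pair and medians of 1.14 and 0.904.

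Chromatin genes gave 16 members from 13 hosts, with none called in the A549 pair and medians of 0.902 and 0.948. The 2 lower in the HCC827 pair were ATAD2, a bromodomain ATPase, at 1431 and 560 CPM (0.391), and the ring of 12 exons of EHMT1, a histone H3 lysine methyltransferase, at 0.422. SFMBT2 and KDM1B, also called lower in the HCC827 pair, were not on this list. The list of extracellular matrix and adhesion genes held only 3 members, none called in either pair. It did not hold THBS3, called lower in both pairs, or TGFBI, called higher in the HCC827 pair.

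The cell lines were also set side by side. Between the parents, 47 members (14.4%) were at least 2-fold higher in HCC827 than in A549 and 40 (12.3%) were at least 2-fold lower, against 15.6% and 12.6% of all circRNAs. In 12 members both HCC827 libraries were at least 2-fold above both A549 libraries, and in 11 members both A549 libraries were at least 2-fold above both HCC827 libraries. These were 3.68% and 3.37% of the members, against 3.61% and 5.18% of all circRNAs, so the members lay near or below the table as a whole. ODF2L, a centriolar protein, was in the first set, with a ring of 13 exons at 142, 162, 854 and 984 CPM, and so were 3 rings of PICALM, a clathrin adaptor, of which that of 18 exons was at 687, 618, 1942 and 1844 CPM. The second set held, beside NTRK3 and THSD7A, rings of the 3 drug exporters ABCC1, ABCC2 and ABCC4. The ABCC2 ring of 14 exons was at 2764 CPM in A549 and 2586 in A549/DDP, with 759 in HCC827 and 745 in HCC827/GR. ROBO1, an axon guidance receptor, gave a ring of 22 exons at 2524, 2033, 497 and 297 CPM. Apart from NTRK3 and THSD7A, the rings named here differed by less than 2-fold within each pair.

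Most members were present throughout. Counts were above 0 in all 4 libraries for 320 of the 326 members and at least 100 in all for 292. The scaled level stayed within 2-fold over all 4 libraries for 123 members and within 1.5-fold for 38. In neither pair were 226 of the 326 called, 79 were called in the HCC827 pair alone and 11 in the A549 pair alone. Among the 11, the NTRK3 ring and the 2 THSD7A rings had no counts in the HCC827 pair and could not be called there.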

How the data were processed

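The authors sequenced ribosomal RNA-depleted libraries in paired-end mode, trimmed reads with Cutadapt, checked them with FastQC and aligned them with Bowtie 2 and TopHat2. For the circRNA table the caller, counter and build were not given in the sources used here. As deposited, the values are estimated counts, often fractional, and FPKM. The deposited FPKM equalled the count divided by spliced length and by 1 whole number per library (21900963 to 28415200). Lengths were taken from this relation.

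Counts were scaled to the circRNA counts of each library (CPM). Ratios for calls had 3 counts added in each library, with a threshold of 2 or 0.5 and at least 10 counts over a pair. Plain ratios carry exact conditional Poisson intervals at 95%, from counts rounded to whole numbers, and shares carry exact Clopper-Pearson intervals; both cover counting error only, and reads are not independent molecules. With 1 library per condition no test was run. Host lists were written for this work. All members lay within the RefSeq GRCh38.p14 gene of their name, used for names only.

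Named members were the 5 with the most counts, the 8 largest and 8 smallest ratios called in each pair, those called in both pairs, the 5 with the most exons, the 5 hosts with the most members, and called members of the lists; 1 of the 5 with the most counts is not reported here. ATR, NF1, BIRC6, DHTKD1, TBC1D31, ZCCHC2, the calls of the A549 pair alone, the members whose call differs on FPKM and the members that separate the cell lines were added after their values were seen. The members and lists were chosen with earlier results of these data known.

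The procedure was tested on simulated data. Values were computed in Python 3.11.15 with numpy 2.4.6, scipy 1.17.1 and pandas 2.3.3, and drawn with matplotlib 3.10.9. The lncRNA table was not used here. Alternatives were the count minimum, the floor, the fold, the scaling, FPKM, the exon limit, and subsets of members.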

Additional observations from a re-analysis of the deposited data

Results flagged for a closer look

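The 7 members of CPS1, PDE3A and DNA2 were at least 2-fold higher in A549/DDP than in A549 and at least 2-fold lower in HCC827/GR than in HCC827. The difference between the pairs was not tested, since each condition had 1 library. For CPS1 the ratio in the A549 pair was 12.3 in the ring of 20 exons, 12.4 in that of 21, 12.2 in that of 25, 11.9 in that of 34 and 11.97 in that of 36, and these rings share most of their exons. For PDE3A it was 6.04 and for DNA2 2.02.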

How the results depend on the processing

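For A549/DDP 21 of 326 members (6.44%) were called and for HCC827/GR 89 of 323 (27.6%). With a fold of 4 these counts were 12 (3.68%) and 29 (8.98%). With 8 or more exons as the limit they were 35 of 575 (6.09%) and 174 of 569 (30.6%). With 15 or more exons they were 10 of 97 (10.3%, with 6 higher and 4 lower) and 18 of 97 (18.6%). Among the 109 members that overlap no other circRNA, an alternative chosen after seeing the data, they were 2 (1.83%, both lower) and 24 (22.0%). The median ratio of the A549 pair was 1.07 among the last. On FPKM the calls of the A549 pair were 13 higher and 11 lower, against 8 and 13. The ratio of the members' share of circRNA counts in the A549 pair was 1.08. It was 1.06 with 8 or more exons, 1.18 with 15 or more, 1.07 without the circRNA of the most counts and 1.02 without the CPS1 members, also chosen after seeing the data. In the HCC827 pair it was 0.976, and 0.951 with 8 or more exons, 0.829 with 15 or more and 1.02, on the other side of 1, without the CPS1 members. The cause was not tested for the members without overlap. Scaling to the median ratio shifted all circRNAs by 0.02 and -0.09 on the log2 scale and left 21 and 90 calls, and 1 member per host gave 15 and 66. No paired analysis was possible because the labels give no replicate numbers and the results come from no test. Depth limits the few members under 300 counts over a pair. Most members overlap another circRNA, reads of linear mRNA cannot be told apart from those of the rings, and the zeros of HCC827/GR bear on the ratios of its pair.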
